A study of Mus musculus with 4 samples.

Results

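A set of 9 genes of myelin and of the oligodendrocyte, the glial cell that makes myelin in the central nervous system, was examined in granule-cell-enriched (GCE) tissue from the vermis of the mouse cerebellum. They are *Mbp*, *Mobp*, *Cldn11*, *Mal*, *Mog*, *Mag*, *Cnp*, *Ugt8a* and *Olig1*. They were taken by name as myelin and oligodendrocyte genes, with earlier results of these data known, and matched by NCBI gene number. All 9 were found among the 24532 genes of each table, with 1 entry each. Bulk RNA was sequenced from 2 WT animals and 2 *Kdm3b*+/- animals (heterozygotes), each giving 1 library. The heterozygotes carry a gene-trap vector in an intron of 1 allele of *Kdm3b*, a demethylase of lysine 9 on histone 3, in all their cells. They derive from 1 targeted ES cell line and were backcrossed to C57BL/6 substrains, and the study describes its animals as adult males with WT littermates as controls. Slices of the vermis were dissected by hand to obtain GCE tissue, so the share of each cell type can differ between libraries.

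Myelin is the stack of membrane that an oligodendrocyte wraps around an axon. MBP holds the inner faces of compact myelin together, CLDN11 seals its layers by tight junctions, and MOG, MAG and CNP lie at its outer surface, next to the axon and in its non-compact channels. UGT8A makes the galactolipids of the membrane, and OLIG1 is a transcription factor of the lineage. In the cerebellum, white matter and the granular layer hold many myelinated axons, while mature granule cells do not make these proteins. In bulk tissue, fewer oligodendrocytes and less of a transcript per oligodendrocyte cannot be told apart.

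The tables imply 4.92 and 5.74 aligned gigabases for WT animals and 5.69 and 6.69 for heterozygotes. The mean read depth over a gene ran from 29.5 to 4435 among the 9 genes, so counting error is small for all of them. *Kdm3b* itself had a TPM (transcript abundance scaled to gene length and to a fixed total per library) of 9.10 and 11.0 in WT animals and of 8.30 and 7.90 in heterozygotes. Both heterozygotes were below both WT animals, and the log2 difference was -0.27 (standard error 0.17, adjusted p = 0.424, limma), which did not pass the test. The granule cell markers summed to between 4794 and 5726 TPM and were present in every library. The Purkinje cell markers summed to 1467 TPM in WT animal 1 and to between 586 and 811 TPM in the other libraries. Of 4 Schwann cell markers, 3 were under a mean TPM of 1. All 4 choroid plexus markers were under that level as well.

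Of the 9 genes, *Mobp* was the one that changed past the test. Its TPM was 925 and 893 in WT animals and 471 and 482 in heterozygotes, which is a decrease of the mean from 909 ± 22.6 to 477 ± 8.42 (SD, n = 2 each). *Ugt8a* was higher and *Mal* lower in both heterozygotes than in both WT animals, and neither passed the adjusted threshold. In the other 6 genes the genotypes overlapped. A call needed an adjusted p below 0.05 together with more than a 1.2-fold difference, from limma on log2(TPM + 1) over the 13652 genes whose mean TPM reached 1. By this rule 1 of the 9 genes was called lower, where the rule called 0.344% of all genes lower, and none was called higher, where it called 0.117%. At an unadjusted p under 0.05, 1 of the 9 genes was higher and 2 were lower, against 5.47% and 11.5% of all genes. Values of the genotypes did not overlap for 1 gene that was higher and 2 that were lower, against 19.2% and 32% of all genes. As the 9 genes were chosen with earlier results known, these shares are a description and not a test. Across the 9 genes the log2 fold change had a median of -0.06, against -0.07 for all 13652 genes. With median-ratio scaling these medians were 0.01 and -0.01. The median of the 9 genes turned to 0.17 without heterozygote 1 and was -0.28 without heterozygote 2.

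**Figure D1:**
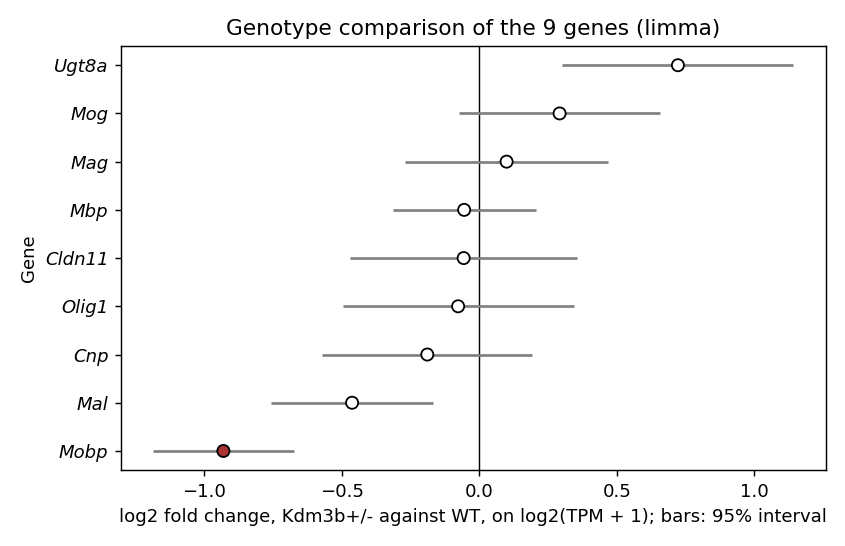
The log2 fold change of heterozygotes against WT animals (x axis, on log2(TPM + 1)) is shown for each of the 9 genes (y axis), with the 95% interval from limma as a bar and the called gene filled. *Mobp* lies lowest at -0.93 and *Ugt8a* highest at 0.72, and the intervals of 6 genes include 0.

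The order of the levels was led by *Mbp*. Its TPM lay between 10521 and 12577, and it ranked as the gene with the highest or second highest TPM in each library. *Cnp* followed with a mean of 836 TPM, then *Mobp* with 693, *Mal* with 285, *Mog* with 265, *Mag* with 246, *Olig1* with 139, *Ugt8a* with 25.1 and *Cldn11* with 13.5. The ranges over the 4 libraries overlapped between *Cnp* and *Mobp*, between *Mal* and *Mog*, and between *Mog* and *Mag*. The order of these means did not hold in every library. *Mal* was above *Mog* in both WT animals (344 against 267 and 317 against 210). It was below *Mog* in both heterozygotes (224 against 261 and 256 against 323). *Cnp* was above *Mobp* in both heterozygotes (642 against 471 and 935 against 482). In WT animals it had 868 against 925 and 898 against 893. The size of the lead of *Mbp* depended on the scale, and the reason was not tested. Its mean TPM was 14.1 times that of *Cnp*, but in coverage, which is the average depth of reads on the bases of a gene, the lead was 1.72-fold per aligned gigabase. For *Mbp* this depth was 0.115 times the FPKM (fragments scaled to gene length and to the mapped total) in each library, while it equalled the FPKM for *Cldn11*, *Mal*, *Mog*, *Ugt8a* and *Olig1*. The order of the 9 genes by their means was the same on both scales.

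**Figure D2:**
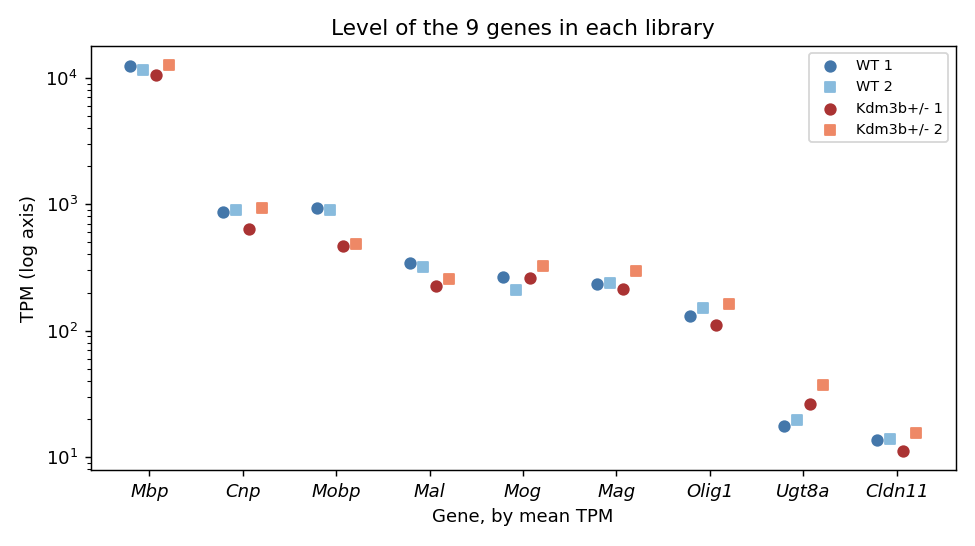
The TPM of each of the 9 genes (x axis, ordered by mean TPM) is shown on a log axis (y axis), with 1 point per library in blue for WT and red for heterozygotes. The red points lie below the blue ones for *Mobp* and *Mal* and above them for *Ugt8a*, and are mixed with them elsewhere.

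Promoter sequences of the 3 genes whose genotypes did not overlap are shown because *Mobp* and *Mal* were lower and *Ugt8a* was higher in the same libraries. They are the 250 bases before the RefSeq start of each gene on GRCm38.p6, 5′ to 3′ on the strand of the gene. The deposited tables do not name their build. The windows end at the deposited start for *Mobp* and *Mal*, while the deposited *Ugt8a* model starts inside the RefSeq gene. RefSeq windows were given for 7 of the 9 genes, of which *Mag* has 3 and the others 1 each. A set of 3 motifs was searched on both strands, and matches are in capitals. They were CANNTG, the E-box read by basic helix-loop-helix factors such as OLIG1, CTGGCAC or CTGGTAC, a site of the myelin regulatory factor MYRF, and ACAAAG, a form of the core bound by SOX factors, which reads CTTTGT on the other strand. ACAAAG was added after the *Mobp* sequence was seen. No match of a motif overlapped another in the windows printed.
Mobp, chr9:120149492-120149741, forward strand: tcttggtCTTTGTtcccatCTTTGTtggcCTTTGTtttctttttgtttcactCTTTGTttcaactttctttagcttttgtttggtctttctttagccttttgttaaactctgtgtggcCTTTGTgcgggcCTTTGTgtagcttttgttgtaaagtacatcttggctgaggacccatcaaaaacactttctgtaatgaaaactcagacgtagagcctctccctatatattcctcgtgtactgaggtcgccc
Mal, chr2:127656696-127656945, reverse strand: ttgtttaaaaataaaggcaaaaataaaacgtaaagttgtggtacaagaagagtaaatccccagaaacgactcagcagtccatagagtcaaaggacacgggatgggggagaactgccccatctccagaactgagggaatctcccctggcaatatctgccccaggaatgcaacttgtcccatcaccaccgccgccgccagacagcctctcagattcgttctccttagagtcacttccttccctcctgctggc
Ugt8a, chr3:125938653-125938902, reverse strand: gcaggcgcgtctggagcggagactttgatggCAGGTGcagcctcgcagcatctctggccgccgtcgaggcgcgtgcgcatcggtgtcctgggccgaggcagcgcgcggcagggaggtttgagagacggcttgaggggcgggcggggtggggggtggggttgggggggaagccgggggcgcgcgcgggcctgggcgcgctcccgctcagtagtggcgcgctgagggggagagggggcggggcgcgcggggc

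The *Mobp* window held 6 matches of ACAAAG, all of them written CTTTGT, and no match of the other motifs. Of 32851 windows of the same length over all genes, 16.5% held at least 1 match of ACAAAG, and 1 window, that of *Mobp*, held 6 or more. Because ACAAAG was chosen from the *Mobp* sequence, this count is a description and not a test. The *Mal* window held no match of any of the 3 motifs. The *Ugt8a* window held 1 E-box, CAGGTG, and no other match, and E-boxes were found in 66.2% of all windows. The MYRF motif was found in 4 of the 9 windows of these genes, against 5.93% of all windows. These are the windows of *Mog* and *Cnp* and 2 overlapping windows of *Mag* that share the same match. E-boxes and ACAAAG were also found in 4 of the 9 windows each, against 66.2% and 16.5% of all windows. These shares were not tested. A match is a description of these letters and shows no binding.

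*Mobp* (NCBI gene 17433, chromosome 9, 120149742 to 120176091, forward strand) encodes a small basic protein of compact myelin. Its log2 fold change was -0.93 (standard error 0.11, 95% interval -1.18 to -0.67, adjusted p = 0.0133, limma), and the mean TPM fell by 47.6%. The mice of each genotype lay close together, with a difference of -0.05 between the WT animals and of 0.04 between the heterozygotes on the log2 scale. The log2 fold change was -0.90 without WT animal 1, -0.95 without WT animal 2, -0.91 without heterozygote 1 and -0.95 without heterozygote 2. The call was lost without either WT animal and kept without either heterozygote, although the size hardly moved. Each of these fits leaves 1 animal in a genotype, so the spread within that genotype is not seen. In coverage per aligned gigabase, a scale added after seeing the data, *Mobp* had 268 and 246 in WT animals and 131 and 136 in heterozygotes. On that scale the log2 fold change was -0.94 (adjusted p = 0.0647, limma), past the fold change but not the adjusted p. The ratio of this depth to FPKM was 0.643 and 0.640 in WT animals and 0.599 and 0.616 in heterozygotes. Since transcripts of different length can move this ratio, a change in the mix of *Mobp* transcripts was not tested.

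The ratio of *Mobp* to other myelin genes within a library does not depend on the library's scaling. The TPM of *Mobp* was 7.41% and 7.81% of that of *Mbp* in WT animals and 4.47% and 3.84% in heterozygotes. Both heterozygotes were again below both WT animals, and the difference of the log2 ratio was -0.88. Against *Mag* the difference was -1.03, and against *Cnp* it was -0.74. With 2 mice against 2, an exact permutation test of such a ratio cannot give a two-sided p below 0.333. Against the mean log2 TPM of the other 8 genes, *Mobp* stood 2.02 and 1.99 higher in WT animals and 1.22 and 0.85 higher in heterozygotes. The 3 tested genes with the profile nearest to *Mobp*, by the Euclidean distance of centred log2(TPM + 1) over the 4 libraries, were *Ucma* (distance 0.034), *Rcan2* (0.082) and *Pth2r* (0.082). *Ucma* had a TPM of 58.4 and 56.8 in WT animals and of 28.6 and 30.2 in heterozygotes. The gene nearest to the summed TPM of the other 8 genes, *Cend1*, lay at a distance of 0.017. Over only 4 libraries, near profiles do not show shared regulation, which was not tested.

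**Figure D3:**
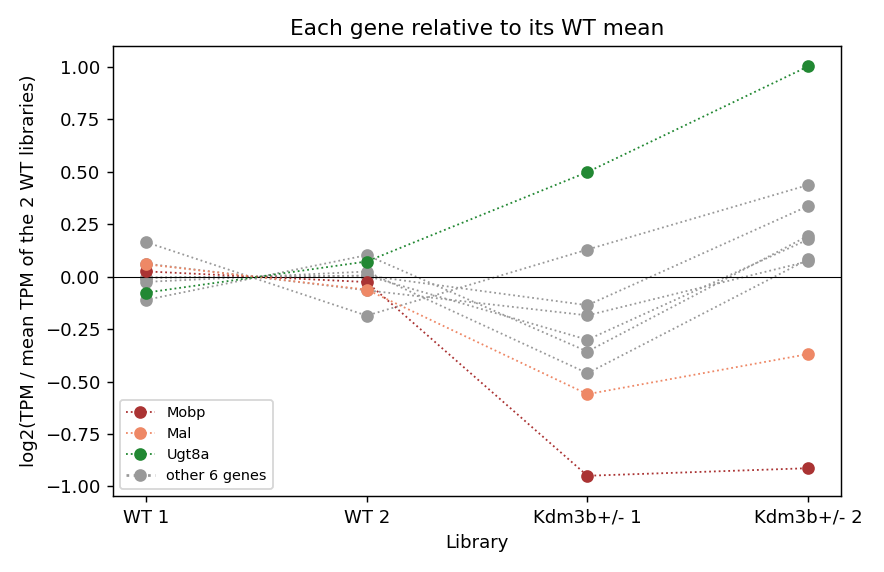
The TPM of each gene relative to its mean in WT animals (y axis, log2) is shown for the 4 libraries (x axis), with points of a gene joined by a dotted line and *Mobp*, *Mal* and *Ugt8a* in colour. Both *Kdm3b*+/- libraries lie low for *Mobp* and *Mal* and high for *Ugt8a*. All 9 genes lie higher in heterozygote 2 than in heterozygote 1.

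*Mal* (NCBI gene 17153, chromosome 2, 127633226 to 127656695, reverse strand) encodes a membrane protein of compact myelin that binds its lipids. Its TPM was 344 and 317 in WT animals and 224 and 256 in heterozygotes. Both heterozygotes lay below both WT animals. This gave a log2 fold change of -0.46 (standard error 0.13, 95% interval -0.76 to -0.17), with an unadjusted p of 0.00606 and an adjusted p of 0.168 (limma). *Mal* was not called under any of the 16 alternatives. Leaving out 1 library at a time gave log2 fold changes from -0.56 to -0.37. The TPM of *Mal* was 2.76% and 2.77% of that of *Mbp* in WT animals and 2.13% and 2.03% in heterozygotes.

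*Cldn11* (NCBI gene 18417, chromosome 3, 31149920 to 31164326, forward strand) had a TPM of 13.7 and 13.8 in WT animals and of 11.1 and 15.5 in heterozygotes. The WT values lay between the heterozygote values, and the 95% interval of the log2 fold change ran from -0.47 to 0.36. *Mbp* (NCBI gene 17196, chromosome 18, 82475123 to 82585637, forward strand) had a TPM of 12483 and 11429 in WT animals and of 10521 and 12577 in heterozygotes. Here the WT values also lay between the heterozygote values. For *Mbp* the log2 fold change was -0.05 with a 95% interval from -0.31 to 0.21, which does not include the value of *Mobp*.

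The 3 genes for proteins of the myelin surface, of the layer next to the axon and of non-compact myelin were not called. *Mog* (NCBI gene 17441, chromosome 17, 37010740 to 37023398, reverse strand), whose protein sits on the outermost layer, had a TPM of 267 and 210 in WT animals and of 261 and 323 in heterozygotes. The genotypes overlapped, and the log2 fold change was 0.29 (95% interval -0.07 to 0.66, adjusted p = 0.382, limma). It was 0.47 without WT animal 1 and 0.12 without WT animal 2. *Mag* (NCBI gene 17136, chromosome 7, 30899181 to 30914922, reverse strand) encodes an adhesion protein facing the axon. It had a TPM of 235 and 237 in WT animals and of 215 and 298 in heterozygotes. *Cnp* (NCBI gene 12799, chromosome 11, 100574939 to 100581739, forward strand) encodes a phosphodiesterase of non-compact myelin. Its TPM was 868 and 898 in WT animals and 642 and 935 in heterozygotes. In *Mag* and *Cnp* the WT animals were close to each other and lay between the heterozygotes. The 95% interval ran from -0.27 to 0.47 for *Mag* and from -0.57 to 0.19 for *Cnp* on the log2 scale.

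*Ugt8a* (NCBI gene 22239, chromosome 3, 125865343 to 125938550, reverse strand) encodes the transferase that adds galactose to ceramide, the step that makes galactosylceramide. Its TPM was 17.6 and 19.5 in WT animals and 26.2 and 37.2 in heterozygotes, and both heterozygotes lay above both WT animals. The mean was 18.6 ± 1.35 and 31.7 ± 7.75 (SD, n = 2 each). The log2 fold change was 0.72 (standard error 0.19, 95% interval 0.30 to 1.14), with an unadjusted p of 0.00363 and an adjusted p of 0.147 (limma). It lay between 0.48, without heterozygote 2, and 0.97, without heterozygote 1. Within libraries the ratio went the other way from that of *Mobp*, as *Ugt8a* had 0.141% and 0.171% of the TPM of *Mbp* in WT animals and 0.249% and 0.296% in heterozygotes. The difference of that log2 ratio was 0.81.

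*Olig1* (NCBI gene 50914, chromosome 16, 91269769 to 91271939, forward strand) had a TPM of 131 and 152 in WT animals and of 110 and 162 in heterozygotes. The WT values again lay between the heterozygote values. Their log2 fold change was -0.08 (95% interval -0.50 to 0.34, adjusted p = 0.86, limma).

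The heterozygotes differed from each other in the same direction across the genes. Heterozygote 2 was above heterozygote 1 in 9 of the 9 genes, with a median difference of 0.44 on the log2 scale. Among all 13652 genes heterozygote 2 was above heterozygote 1 in 58.6%, with a median difference of 0.04. Between the WT animals, WT animal 2 was above WT animal 1 in 5 of the 9 genes, with a median difference of 0.01. Among all genes this held for 58.6%, with a median difference of 0.06. The difference between the heterozygotes was smallest in *Mobp* at 0.04, then 0.19 in *Mal* and 0.26 in *Mbp*, and largest in *Olig1* at 0.55 and *Cnp* at 0.54. The sum over the 9 genes was 15285 and 14168 TPM in WT animals and 12480 and 15085 TPM in heterozygotes, and *Mbp* makes up most of it. The genotypes overlapped in this sum. Astrocyte and Bergmann glia markers summed to 489 and 492 TPM in WT animals and to 444 and 524 TPM in heterozygotes, and 4 of these 6 markers were higher in heterozygote 2 than in heterozygote 1. Of the 6 markers, 2 had a higher and 4 a lower mean in heterozygotes, with a median log2 fold change of -0.28. The water channel gene *Aqp4* was called higher, with a TPM of 59.2 and 82.3 in WT animals and 150 and 152 in heterozygotes, and was not called without WT animal 1 (adjusted p = 0.0723, limma). It was called in 12 of the 16 alternatives. At an unadjusted p under 0.05, 3 markers were lower, with log2 fold changes of -0.69 for *Aldh1l1*, -1.03 for *Gdf10* and -0.47 for *Slc1a3* (limma), and these were named because they had opposite signs to *Aqp4*. Microglia markers summed to between 85.4 and 105 TPM, and all 6 were higher in heterozygote 2. Endothelial markers summed to between 233 and 279 TPM. The part of tissue composition in these differences was not tested.

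The other genes of the lineage were taken from 5 lists with 70 genes in all, each of which passed the TPM minimum. These lists too were chosen with earlier results known, so counts set beside all genes are descriptions and not tests. In these lists 2 genes were called higher and 1 was called lower, against 0.117% and 0.344% of all genes. At an unadjusted p under 0.05, 13 of the 70 were higher and 6 lower, against 5.47% and 11.5% of all genes. Their median log2 fold change was 0.01, against -0.07 for all genes, and 69 of them were higher in heterozygote 2 than in heterozygote 1.

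Of 17 other myelin membrane and junction genes, 14 had a higher mean in heterozygotes, and 15 did with median-ratio scaling. The median log2 fold change was 0.22, against -0.07 for all genes. All 17 were higher in heterozygote 2 than in heterozygote 1, so their signs are not independent. *Ninj2*, which encodes the adhesion protein ninjurin 2, was called. Its TPM was 8.77 and 8.36 in WT animals and 17.6 and 19.8 in heterozygotes (log2 fold change 1.04, standard error 0.16, adjusted p = 0.0328, limma). The call of *Ninj2* was lost without WT animal 1 (adjusted p = 0.0772), WT animal 2 (0.111) or heterozygote 2 (0.0511, limma) and without the filter on low TPM (0.322), and in coverage per aligned gigabase its log2 fold change was 0.58 (adjusted p = 0.132, limma). *Cd9*, *Opalin*, *Cmtm5*, *Lpar1* and *Omg* were also higher at an unadjusted p under 0.05, and *Hapln2*, a link protein of the nodes of Ranvier, was lower. This makes 6 higher and 1 lower of the 17, against 5.47% and 11.5% of all genes. The choice of the 6 genes other than *Ninj2* was made after seeing their values. *Opalin*, a membrane protein of mature oligodendrocytes, had a TPM of 82.9 and 88.3 in WT animals and of 119 and 163 in heterozygotes.

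Of 24 other genes of mature oligodendrocytes, 11 had a higher and 13 a lower mean in heterozygotes, with a median of -0.01. This split turned to 13 higher and 11 lower with median-ratio scaling. *Qdpr*, which encodes the reductase that regenerates tetrahydrobiopterin, was called higher. Its TPM was 615 and 575 in WT animals and 970 and 1099 in heterozygotes (log2 fold change 0.79, standard error 0.12, adjusted p = 0.0329, limma). *Ptgds*, which encodes a prostaglandin D2 synthase that meningeal cells make too, was called lower. Its TPM was 1847 and 1663 in WT animals and 990 and 999 in heterozygotes (log2 fold change -0.82, standard error 0.11, adjusted p = 0.0239, limma). Both calls were lost without WT animal 1 (adjusted p = 0.0832 for *Qdpr* and 0.0867 for *Ptgds*, limma), without WT animal 2 (0.155 and 0.0918) and with FPKM (0.0551 and 0.0801). They were also lost with eBayes without trend (0.107 and 0.0931), without the filter on low TPM (0.446 and 0.447) and in coverage (0.0922 and 0.125), and that of *Ptgds* with median-ratio scaling (0.0604). At an unadjusted p under 0.05, 6 genes were higher (*Qdpr*, *Car2*, *Cryab*, *Klk6*, *Ppp1r14a* and *Serpinb1a*) and 5 were lower (*Ptgds*, *Gpd1*, *Carns1*, *Anln* and *Apod*) of the 24, against 5.47% and 11.5% of all genes. Apart from *Qdpr* and *Ptgds*, these genes were chosen with their values known.

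The 9 transcription factors of the lineage other than *Olig1* all had a lower mean in heterozygotes, but 1 of them turned higher with median-ratio scaling, quantile normalization, FPKM or coverage. None was called and none had an unadjusted p under 0.05 (limma), and the median log2 fold change was -0.21, against -0.07 for all genes. All 9 were higher in heterozygote 2 than in heterozygote 1, so their signs are not independent. *Nkx6-2*, a homeobox factor of mature oligodendrocytes, had a TPM of 90.4 and 91.3 in WT animals and of 65.4 and 84.5 in heterozygotes. Its log2 fold change was -0.29 (adjusted p = 0.374, limma), with -0.10 when heterozygote 1 was left out and -0.47 when heterozygote 2 was.

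Of 11 myelin lipid enzymes and transporters, none was called and none had an unadjusted p under 0.05 (limma). *Abca2*, a lipid transporter, had a TPM of 76.8 and 94.1 in WT animals and of 63.0 and 70.9 in heterozygotes. *Aspa*, whose enzyme frees acetate for lipid synthesis, had a TPM of 72.4 and 66.4 in WT animals and of 79.3 and 96.6 in heterozygotes. The genotypes did not overlap in either gene, and the adjusted p was 0.295 and 0.298 (limma). Values did not overlap for 2 of the 11 genes that were higher and 4 that were lower, against 19.2% and 32% of all genes. The median of this list was -0.05 and changed sign with median-ratio scaling.

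Of 9 genes of precursors and newly formed oligodendrocytes, none was called, and 1 had an unadjusted p under 0.05 (limma). That was *Bmp4*, a growth factor, with a TPM of 0.841 and 0.943 in WT animals and of 2.36 and 2.19 in heterozygotes (log2 fold change 0.79, adjusted p = 0.128, limma). At this low level a log2(TPM + 1) scale understates the change. *Enpp6*, which newly formed oligodendrocytes express, had a TPM of 9.46 and 9.21 in WT animals and of 9.78 and 14.1 in heterozygotes.

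**Figure D4:**
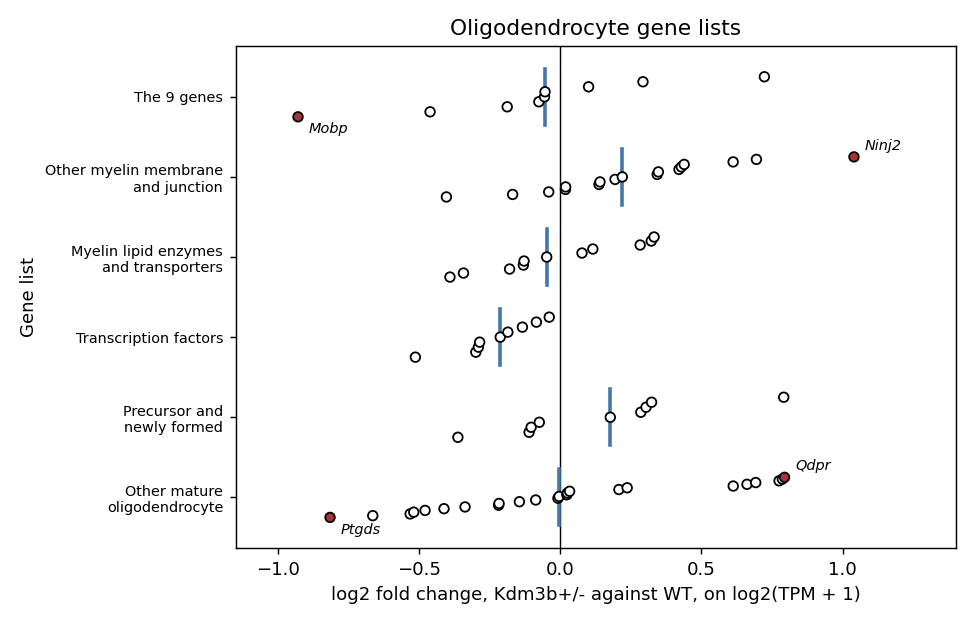
The log2 fold change of heterozygotes against WT animals (x axis, on log2(TPM + 1)) is shown for every gene of the 9 and of the 5 other oligodendrocyte lists (y axis), with called genes filled and named and the median of each list as a blue line. Genes on both sides of 0 are found in each list but that of the transcription factors, whose median is -0.21.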

How the data were processed

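Low-quality bases were trimmed, reads were aligned with STAR and gene abundances were estimated with StringTie by the authors, who deposited coverage, FPKM and TPM for each gene of each library. The deposited coverage values are mean read depths, without scaling to the library. For the deposited FPKM values fragments are divided by gene length and by the mapped total. The deposited TPM values are divided by length and brought to a sum of 1000000 in every library. The genome build, annotation and tool versions are not given in the sources used here. Of 24532 gene numbers, 24462 had a RefSeq symbol, and 99.6% of these lay on the GRCm38 chromosome. Entries sharing a gene number were summed.

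Log2(TPM + 1) was compared between genotypes with limma version 3.58.1 (eBayes with trend) in R version 4.3.3 over the 13652 genes whose mean TPM reached 1, with Benjamini-Hochberg adjustment. The study's DESeq2 fit needs counts and was not repeated. The p-values rest on 2 animals per genotype, but not on the spread of the tested gene alone. The eBayes step draws that spread toward the spread of genes at a similar level. Aligned gigabases were read from the most frequent ratio of coverage to FPKM, which held, within 0.1%, for at least 67.6% of entries with an FPKM above 1. The 9 genes and all lists were chosen with earlier results of these data known. The named genes were the 9 genes, *Kdm3b*, the called genes of each oligodendrocyte list or else the 2 with the smallest p, and the genes with the nearest profiles. Some listed genes are counted with their list and are not reported here by themselves. The fits were tested on simulated data. Alternatives were a pseudocount of 0.1, FPKM, other filters and scalings, the highest entry per gene, eBayes without trend or robust (statmod version 1.5.0), the replicate number as a block, each library left out, and coverage per aligned gigabase, which was added after seeing the data. Other steps used Python version 3.11.15, pandas version 2.3.3 and Matplotlib version 3.10.9.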

Additional observations from a re-analysis of the deposited data

How the results depend on the processing

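The log2 fold change of *Mobp* kept its direction under all 16 alternatives, and *Mobp* stayed called in 11 of them. It was not called without the filter on low TPM (0 of the 9 genes called, adjusted p = 0.255), with eBayes without trend (0 called, adjusted p = 0.06), with coverage per aligned gigabase (0 called, adjusted p = 0.0647), or without either WT animal. With each library left out in turn, between 0 and 1 of the 9 genes were called, from 7 to 42 genes of all were called higher and from 14 to 146 lower. A fit on 3 libraries assumes that the lone animal varies like the others. The causes of these shifts were not tested.

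Of all genes, 16 were called higher and 47 lower. These counts were 1 and 1 without the filter on low TPM, 10 and 27 with eBayes without trend, and 5 and 9 with coverage. With FPKM 26 were called lower, and 29 were called higher with median-ratio scaling and 28 with robust eBayes. With the replicate block 173 were called higher and 427 lower, and 2 of the 9 genes were called, *Mobp* and *Ugt8a* (adjusted p = 0.0258). Same-numbered animals are different animals, and the labels state no pairing. Their deviations from the group means correlated at 0.121 across genes, which cannot decide whether the numbers pair the animals.

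Near 0, directions turned. *Mbp* had a log2 fold change of 0.011 with FPKM, 0.017 with median-ratio scaling and 0.014 with coverage, and *Cldn11* had 0.0052 with FPKM, 0.0100 with median-ratio scaling, 0.062 with quantile normalization and 0.0052 with coverage. With each library left out in turn, the range was -0.18 to 0.074 for *Mbp*, -0.28 to 0.17 for *Cldn11*, -0.14 to 0.34 for *Mag*, -0.46 to 0.083 for *Cnp* and -0.35 to 0.20 for *Olig1*, with the ends set by leaving out 1 of the heterozygotes. The median of the 9 genes lay between -0.28 and 0.17 with each library left out, and the log2 ratio of *Mobp* to *Mbp* between -0.99 and -0.77. With 2 animals, leaving out 1 cannot move such a value by more than the spread between animals, so these ranges show no stability. The range was 0.12 to 0.47 for *Mog*, -0.40 to -0.15 for *Kdm3b*, -0.49 to -0.20 for *Abca2*, 0.19 to 0.47 for *Aspa* and 0.061 to 0.55 for *Enpp6*. With 2 animals per genotype, a difference of the size seen in *Mal* did not pass the adjusted threshold.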
